A study of Mus musculus with 6 samples.

Results

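The Mcm genes encode the replicative helicase that opens the DNA double strand ahead of the copying enzymes, together with close relatives and helpers. The 8 genes described here are Mcm2, Mcm3, Mcm4, Mcm5, Mcm6, Mcm7, Mcm8 and Mcm10. They were chosen by name, with earlier results of these data known. Each was measured by probe sets annotated to exactly 1 gene symbol, 23 probe sets in all. The value given for a gene is that of its brightest probe set over the 6 arrays, out of 18194 genes measured in the same way. Livers came from mice on a C57BL/6 background, all of them CYP2D6 transgenic, that is, carrying the human gene for a drug-metabolising cytochrome P450. No group lacked the transgene. Mice were sampled at pre-pregnancy, at day 21 of pregnancy or at day 7 postpartum. Each of these 3 stages has 2 arrays, labelled as biological replicates. The sources used here do not state age, feeding or hour of collection.

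In the G1 phase of the cell cycle the proteins of Mcm2, Mcm3, Mcm4, Mcm5, Mcm6 and Mcm7 join into a ring that is loaded onto replication origins by the origin recognition complex with Cdc6 and Cdt1. This step is called licensing. At the start of S phase the Cdc7-Dbf4 kinase, Cdc45 and the GINS complex turn the loaded ring into a working helicase, and Mcm10 takes part in that activation although it is not a ring subunit. Mcm8 is a relative of the ring subunits that works with Mcm9 in the repair of DNA by homologous recombination. Transcription of the ring subunits is controlled by E2F factors and their retinoblastoma-family partners. Most hepatocytes of an adult liver are out of the cell cycle, and the maternal liver of rodents grows during pregnancy.

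Albumin, the main hepatocyte product, lay between 14.87 and 14.98 on the log2 scale on all arrays. Across genes, the replicates of a stage correlated at 0.994 to 0.997. Array medians lay between 5.09 and 5.15. A value is a log2 signal throughout, and a difference of 1 is a 2-fold change. Adjusted p-values come from limma over all 18194 genes, and a gene is said to rise or fall only where that p was under 0.05. In whole liver, fewer cells that use a gene and less RNA of it per cell cannot be told apart.

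The promoters of these genes are shown because E2F control of the ring subunits is textbook knowledge and the genes moved together. RefSeq sequences (GRCm38.p6), from 250 bases before to 50 bases after the transcript start, were at hand for 7 of the 8 genes, Mcm4 being the one without. They were searched on both strands for 4 spellings of the E2F motif, TTTGGCGC, TTTCGCGC, TTTCCCGC and TTTGCCGC, with overlapping matches counted as 1 site. At least 1 site was found for Mcm3, Mcm5, Mcm6, Mcm7 and Mcm8, and none (0) for Mcm2 and Mcm10. Of all 27025 genes with such a window, 2.60% had a site. The RefSeq table holds a second window for Mcm7, with no E2F match (0). The sites follow with the matched bases in capitals, each read 5′ to 3′ on the strand of its gene, and all of these genes but Mcm5 and Mcm8 lie on the minus strand.
Mcm6, chr1:128359796-128359823: cgtatgctTTTGGCGCGAAAagtgcgtg
Mcm6, chr1:128359737-128359760: tggacgggTTTGGCGCgaagtagc
Mcm5, chr8:75109348-75109375: ccaagaacTTTCGCGCCAAAacgtccag
Mcm3, chr1:20820263-20820282: tgggaagtTTTGGCGCcaag
Mcm3, chr1:20820278-20820301: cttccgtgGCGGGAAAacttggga
Mcm7, chr5:138171852-138171875: tgacgacgTTTCGCGCcaatttcg
Mcm7, chr5:138172033-138172056: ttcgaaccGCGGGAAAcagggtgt
Mcm8, chr2:132816172-132816190: tcatagacGCGCCAAAaaa

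In Mcm5 and at the upstream site of Mcm6 the match reads on both strands, since 2 spellings overlap there. The 250 bases upstream of the Mcm6 start, the gene with the largest fall below, are chr1:128359706-128359955 (GRCm38.p6, minus strand). They are printed with the E2F matches and the CCAAT boxes (here read as ATTGG) in capitals.
Mcm6 upstream: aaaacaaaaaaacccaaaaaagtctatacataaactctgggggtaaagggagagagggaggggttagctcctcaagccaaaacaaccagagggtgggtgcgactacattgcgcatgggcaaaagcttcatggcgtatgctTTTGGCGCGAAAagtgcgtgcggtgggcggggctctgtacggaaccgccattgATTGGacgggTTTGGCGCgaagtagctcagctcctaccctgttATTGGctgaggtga
The E2F matches cover bases -110 to -99 and -47 to -40, counted from the transcript start. A CCAAT box was found in the windows of all 7 genes, and in those of 41.1% of all genes. A match in these letters is a description of the sequence and shows no binding.

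Day 21 of pregnancy was compared with the pre-pregnancy liver first. All 8 Mcm genes fell, against 8.25% of all genes (5.46% rose and 13.7% changed in either direction), and for each of them both pregnant arrays lay below both pre-pregnancy arrays, against 26% of all genes. The falls of the 8 genes had a median of -2.27 on the log2 scale, where the median of all genes was 0.045. Mcm6 had the lowest difference of all 18194 genes, Mcm5 ranked at 5 from the bottom, Mcm3 at 8 and Mcm4 at 12.

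**Figure D1:**
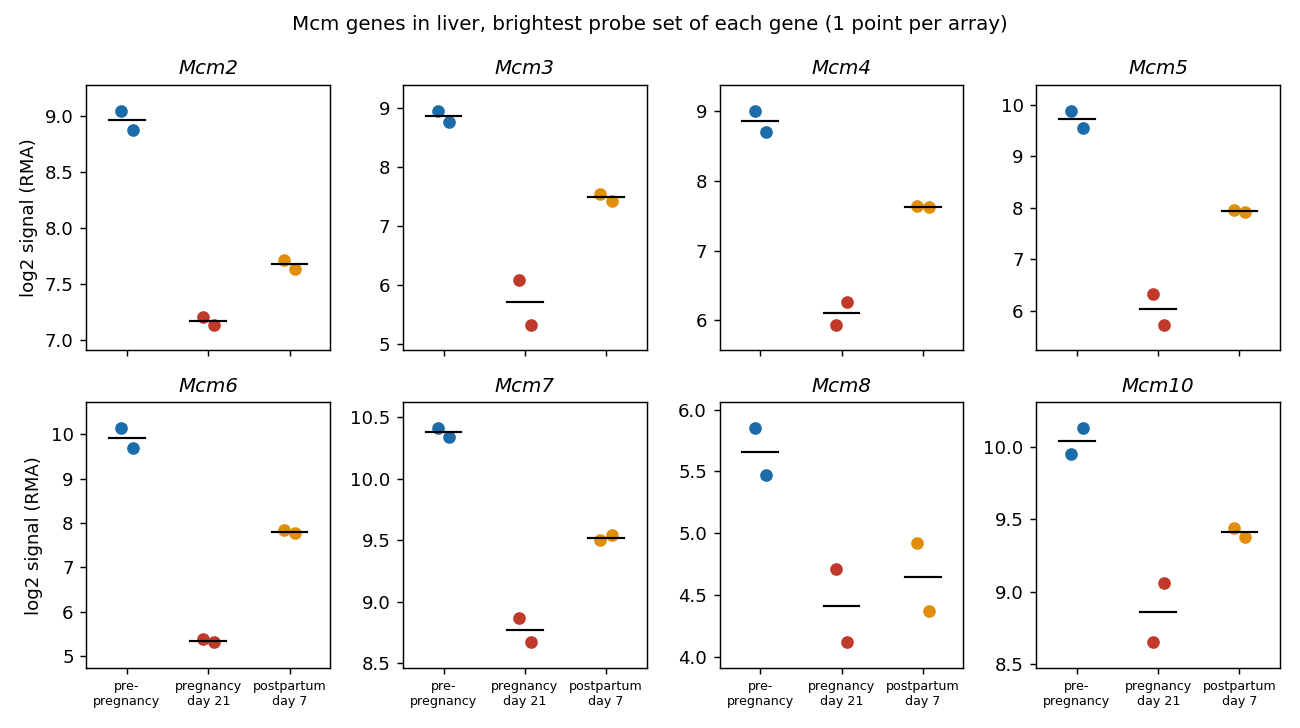
Log2 signal (RMA) of the 8 Mcm genes on each array at the 3 stages, 1 panel per gene with its own vertical scale that does not start at 0. Points are arrays and lines are means of 2 arrays. Of the genes, 7 run from highest before pregnancy, through postpartum, to lowest at day 21 of pregnancy, while the pregnant and postpartum arrays of Mcm8 overlap.

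Mcm6, a ring subunit, stood at 10.14 and 9.70 before pregnancy, 5.38 and 5.31 at day 21 of pregnancy and 7.83 and 7.78 at day 7 postpartum. The 3 stages did not overlap, and the gap between stages was far wider than that between replicates. In pregnancy Mcm6 fell by 4.58 (SE 0.148, adjusted p = 3.59e-05), to 4.20% of its pre-pregnancy signal, with a 95% interval of 3.31% to 5.32%. The pregnant arrays placed this main probe set above 53.5% and 52.5% of all probe sets, near the middle of each array. The second called probe set of Mcm6 stood lower there, at 4.14 and 4.28, above 28.9% and 32.3% of all probe sets.

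Mcm5, which forms with Mcm2 the gate through which DNA enters the ring, stood at 9.89 and 9.55 before pregnancy, 6.32 and 5.73 at day 21 and 7.95 and 7.92 postpartum. It fell by 3.70 in pregnancy (SE 0.197, adjusted p = 0.000227), to 7.72% of the pre-pregnancy signal. Its pregnant replicates were further apart than those of Mcm6, yet both lay far below the other arrays.

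Mcm3 had values of 8.96 and 8.77 before pregnancy, 6.09 and 5.33 at day 21 and 7.55 and 7.43 postpartum. Of the 8 genes it had the widest gap between the pregnant replicates, and these still lay below all other arrays. Its difference in pregnancy was -3.16 (SE 0.222, adjusted p = 0.000429), or 11.2% of the pre-pregnancy signal.

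Mcm4, whose protein is a substrate of the Cdc7-Dbf4 kinase, was at 9.01 and 8.70 before pregnancy, 5.94 and 6.27 at day 21 and 7.64 and 7.62 postpartum. It fell by 2.75 in pregnancy (SE 0.149, adjusted p = 0.000227). The 3 stages were again separate, and the postpartum replicates almost coincided.

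Smaller falls were measured for the other ring subunits. Mcm2, another kinase substrate and a histone-binding subunit, had 9.05 and 8.88 before pregnancy, 7.21 and 7.14 at day 21 and 7.72 and 7.64 postpartum, a fall in pregnancy of 1.79 (SE 0.108, adjusted p = 0.000288). Mcm7 had 10.41 and 10.34 before pregnancy, 8.87 and 8.67 at day 21 and 9.50 and 9.54 postpartum, a fall of 1.61 (SE 0.110, adjusted p = 0.000374). For both genes the 3 stages were separate, and the pregnant signal was 28.9% of the pre-pregnancy one for Mcm2 and 32.9% for Mcm7.

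The genes outside the ring fell too. Mcm10, the activation factor, stood at 9.95 and 10.13 before pregnancy, 8.65 and 9.06 at day 21 and 9.44 and 9.38 postpartum, with a fall in pregnancy of 1.19 (SE 0.149, adjusted p = 0.00390). Mcm8, the repair helicase, was measured by a single, dim probe set at 5.85 and 5.47 before pregnancy, 4.71 and 4.12 at day 21 and 4.92 and 4.37 postpartum. Its pregnant and postpartum arrays overlapped, and both lay below the pre-pregnancy arrays. The fall of Mcm8 in pregnancy was 1.25 (SE 0.245, adjusted p = 0.0175). It was not called without pre-pregnancy replicate 1 (-1.06, adjusted p = 0.148), pre-pregnancy replicate 2 (-1.44, 0.0587) or pregnancy replicate 2 (-0.95, 0.0747). The other 7 genes kept their calls with any 1 of the 6 arrays left out.

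**Figure D2:**
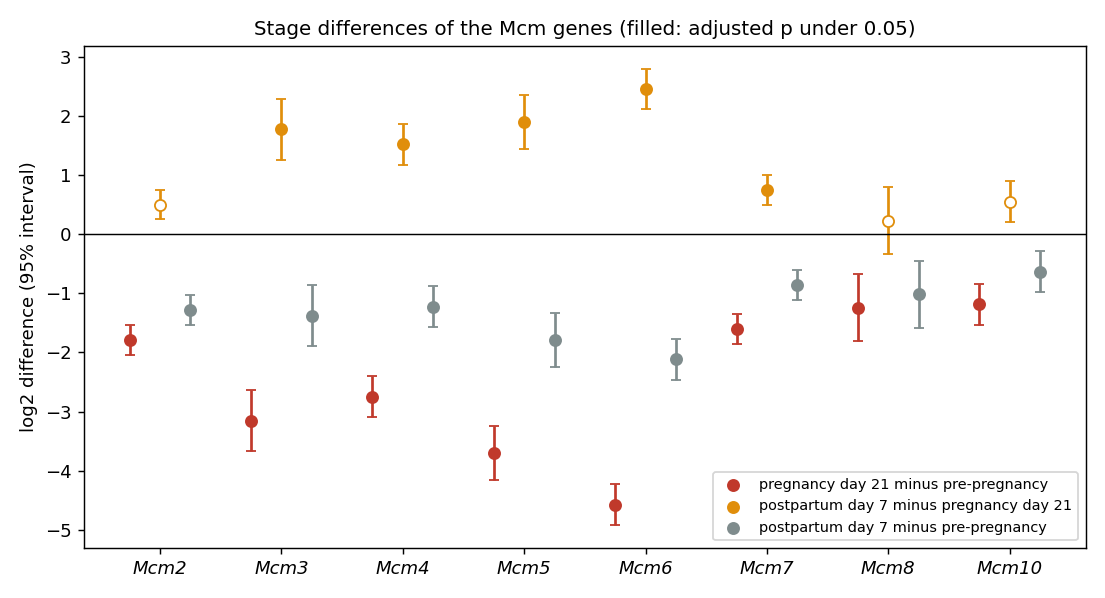
Log2 differences of the 8 Mcm genes in the 3 comparisons, with 95% intervals from limma (2 arrays per stage) and filled points where the adjusted p was under 0.05. All 8 genes are lower at day 21 of pregnancy and at day 7 postpartum than before pregnancy, and 5 are called higher postpartum than in pregnancy. The comparisons share arrays.

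How far the genes fell depended on the probe set. Of the 23 probe sets, 18 fell in pregnancy, none (0) rose and 5 were not called, where 8.56% of all probe sets fell. The 5 that were not called had dim signals: those of Mcm3, Mcm5 and Mcm6 lay between 3.36 and 4.05 on all arrays, and the pair for Mcm10 between 3.51 and 4.75. On the lowest array the lower quartile of all probe sets was 3.91, and 4 of these 5 probe sets had most of their values under it. Mcm10 thus rests on 1 bright probe set of 3, and Mcm8 has only 1.

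Among the bright probe sets, the repeat for Mcm6 was close, at -4.50 beside -4.58. The probe sets of Mcm7 were close too, from -1.35 to -1.61 over all 4. In the other genes they were further apart. Mcm3 ranged from -1.10 to -3.16 over 4 called probe sets, Mcm4 stood at -2.75 and -3.74, Mcm5 at -2.96 and -3.70, and Mcm2 at -1.79 and -2.90. The second probe set of Mcm2 had 5.06 and 5.66 in pregnancy, against 8.53 and 7.98 before. The direction was common to all called probe sets of these genes, whereas the size of the fall was not settled, and the order of the genes by size was not settled either. Averaging all probe sets of a gene, dim ones included, gave -1.60 for Mcm3, -2.16 for Mcm5 and -0.37 for Mcm10, all still called.

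Several main probe sets are of types (_s_at and _x_at) whose probes can match more than 1 transcript. With these types left out, a choice made after seeing the data, all 8 genes were still called lower in pregnancy. The main probe set changed for Mcm2, Mcm3, Mcm5 and Mcm7, and Mcm2 then stood at -2.90. After birth the changed probe set of Mcm2 was called (1.25) and that of Mcm7 was not (0.44, adjusted p = 0.181). Mcm3 then rose by 0.76 (adjusted p = 0.0455) and Mcm5 by 1.17 (adjusted p = 0.0125), smaller values than the 1.78 and 1.91 of their main probe sets below.

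**Figure D3:**
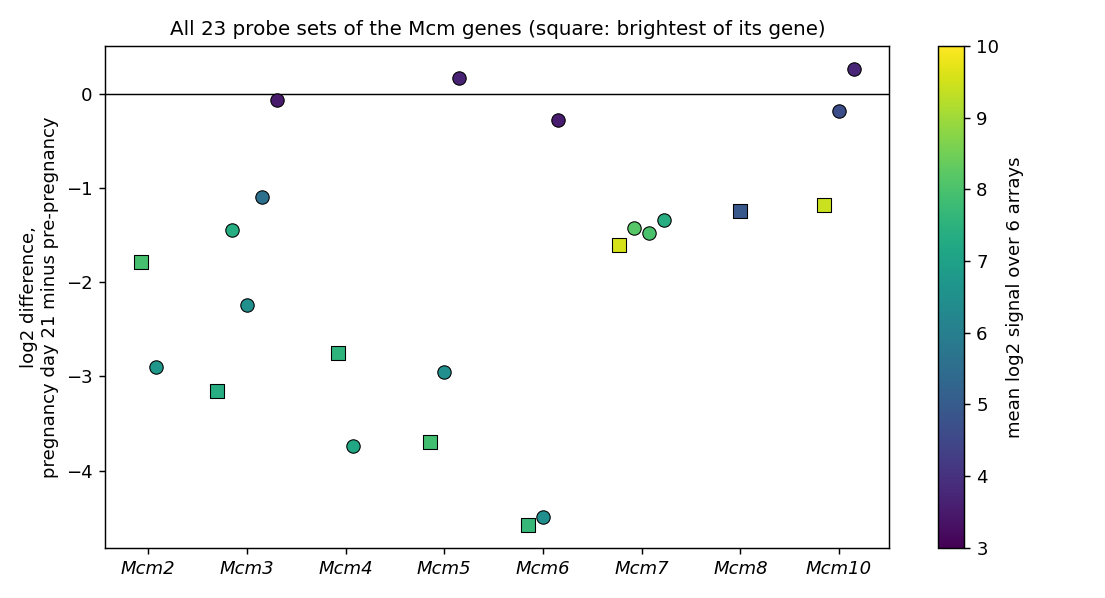
Log2 difference between day 21 of pregnancy and pre-pregnancy for all 23 probe sets of the 8 Mcm genes, coloured by mean log2 signal over the 6 arrays, with squares for the brightest probe set of each gene. The probe sets near 0 are all dim, and the brighter ones of Mcm3 spread from -1.10 to -3.16.

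The postpartum liver was set against the pregnant one next. Of the 8 Mcm genes, 5 rose and none (0) fell, where 2.41% of all genes rose, 0.879% fell and 3.29% changed in either direction, and the postpartum arrays lay above the pregnant ones for 7 genes, where 25.1% of all genes did so. The median difference was 1.14, and -0.01 over all genes. Mcm6 rose by 2.46 (SE 0.148, adjusted p = 0.000706), a 5.50-fold higher signal. The rises of Mcm5 (1.91, SE 0.197), Mcm3 (1.78, SE 0.222) and Mcm4 (1.53, SE 0.149) came next, with adjusted p-values of 0.00468, 0.00951 and 0.00381. These are the genes that also had the largest falls in pregnancy, but the comparisons share the pregnant arrays, so a low pregnant value enters both.

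Mcm7 rose less, by 0.75 (SE 0.110, adjusted p = 0.0160), and its call held in 1 of the 6 fits with an array left out, the one without pregnancy replicate 1. Without either pre-pregnancy array the difference was unchanged at 0.75, and only the spread and its degrees of freedom differed. The difference was 0.65 without pregnancy replicate 2, and 0.77 and 0.73 without postpartum replicates 1 and 2. The Mcm3 call was lost without postpartum replicate 1 (adjusted p = 0.0641) or 2 (0.0501), so the count of 5 became 3 there. Other probe sets of Mcm3 differed by 0.25 to 0.76, and a dim one by -0.10. Of all 23 probe sets 12 rose, where 1.87% of all probe sets did.

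For Mcm2 the main probe set differed by 0.51 (SE 0.108, adjusted p = 0.0509), just outside the threshold, and its second probe set by 1.25 (adjusted p = 0.0337 among all probe sets). Mcm10 differed by 0.56 (SE 0.149, adjusted p = 0.0923). Mcm8 differed by 0.23 with a 95% interval from -0.34 to 0.80 (adjusted p = 0.647), and the sign turned without pregnancy replicate 2 (-0.065) or postpartum replicate 1 (-0.045). No direction was settled for Mcm8 after birth. Over all genes 439 rose and 160 fell, and 292 and 175 after a second quantile normalization.

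Against the pre-pregnancy liver, the postpartum liver was still lower in all 8 Mcm genes, where 3.75% of all genes fell (3.91% rose and 7.66% changed in either direction), with all 8 sets of arrays apart, as for 22.6% of all genes. Mcm6 stood at 23.1% of its pre-pregnancy signal (95% interval 18.2% to 29.3%, log2 difference -2.12, adjusted p = 0.00138) and Mcm5 at 29.0% (log2 difference -1.79, adjusted p = 0.00454). Mcm3, Mcm2 and Mcm4 stood at 38.6%, 41.0% and 42.8%. Mcm8 was at 49.5%, Mcm7 at 55.3% and Mcm10 at 64.6%. Of the 23 probe sets 18 fell, where 4.67% of all probe sets did. For each gene the 95% interval of the postpartum signal ended below the pre-pregnancy level.

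These postpartum calls were less stable than those of pregnancy. The calls of Mcm10 (adjusted p = 0.0449) and Mcm8 (0.0479) lay near the threshold. That of Mcm8 was lost after a second quantile normalization (adjusted p = 0.0504), centring on array medians (0.0543), a trended robust variance (0.0574) and when all genes were taken as the mean of their probe sets (0.0540). That of Mcm10 was lost with the mean of its probe sets (-0.20, adjusted p = 0.230). The calls of Mcm10, Mcm8 and Mcm3 were each lost without any 1 array of the 2 stages compared. With an array left out, the Mcm3 difference ran from -1.47 to -1.28. The number of Mcm genes called fell to 2 without pre-pregnancy replicate 1, namely Mcm2 and Mcm6, and was 5 without pre-pregnancy replicate 2 or either postpartum array. The differences left without pre-pregnancy replicate 1 were -1.28 for Mcm3, -1.07 for Mcm4, -1.62 for Mcm5 and -0.82 for Mcm7, all in the same direction as with 6 arrays.

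On the log2 scale, in the main probe sets, the postpartum means of Mcm3, Mcm4, Mcm5 and Mcm6 had covered 51.7% to 56.4% of the gap between the pregnant and the pre-pregnancy means. Mcm7 and Mcm10 had covered 46.7% and 46.8%, and Mcm2 28.2%. With any 1 array left out, the share for Mcm6 stayed between 51.3% and 56.5%, and that for Mcm2 between 26.0% and 30.4%. The share for Mcm8, 18.5%, ran from -6.84% to 40.6%, which is no estimate. The shares also depended on the probe set, a comparison added after seeing the data: the second probe set of Mcm2 gave 43.2%, the other called ones of Mcm3 gave 22.8% to 34.8%, that of Mcm5 39.6%, and those of Mcm7 30.8% to 48.1%. The second probe sets of Mcm4 and Mcm6 gave 61.6% and 50.6%. In 7 of the 8 genes the stages were ordered with no overlap from pre-pregnancy, the highest, through postpartum to pregnancy, an order found in 5.07% of all genes. All 3 comparisons were called in this order for 5 genes, Mcm3, Mcm4, Mcm5, Mcm6 and Mcm7, and for 25 genes (0.137%) in the whole table.

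The profile of the ring subunits was summarised as the mean of their centred log2 values. It was set beside the genes outside the members with a range of at least 2 on the log2 scale. Mcm2 (1.91), Mcm7 (1.74), Mcm8 (1.73) and Mcm10 (1.48) had smaller ranges themselves, so outside genes with ranges like theirs were not considered. Genes with placeholder symbols (Rik, Gm, LOC or clone names) were left out, which gave 207 genes. Each ring subunit correlated with the mean of the other 5 at a Pearson r of 0.959 (Mcm2) to 0.997 (Mcm5, Mcm6 and Mcm7), and Mcm10 at 0.942 and Mcm8 at 0.872 with that of the ring, over 6 arrays that share 3 stages. The 6 genes most alike were Cnmd, Dtl, Pm20d2, Fignl1, Atad2 and Rpa2, with r from 0.992 to 0.997. Dtl encodes the adaptor that directs Cdt1 to destruction during S phase, Rpa2 a subunit of the protein that coats single-stranded DNA behind the helicase, and Fignl1 a factor of homologous recombination. Cnmd, first known from cartilage, had 9.28 and 8.80 before pregnancy, 5.0 and 4.73 at day 21 and 7.30 and 7.19 postpartum. Dtl had 6.90 and 6.45 before pregnancy, 4.45 and 4.25 at day 21 and 5.51 and 5.57 postpartum. Their differences in pregnancy, whose direction the choice fixed, ran from -1.96 (Atad2) to -4.18 (Cnmd). In this selection 24 of 207 genes reached an r of 0.95.

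Partner genes of the helicase were described from a list of 40, also drawn up with earlier results of these data known. Of these, 18 fell in pregnancy and 1 rose, beside 8.25% and 5.46% of all genes, with a median difference of -0.43, against -2.27 for the 8 Mcm genes. Among 10 genes of origin recognition and loading, 3 fell: the loading factors Cdc6 (-1.76, SE 0.195) and Cdt1 (-1.67, SE 0.150), and Orc6 (-1.42, SE 0.145), a subunit of the origin recognition complex. Cdc6 was dim in pregnancy, at 3.84 and 3.45 against 5.50 and 5.30 before. Orc1, the subunit that varies with the cell cycle in many cells, had 7.24 and 7.08 in pregnancy, against 6.68 and 6.90 before (difference 0.37, adjusted p = 0.117). The other origin recognition genes were not called.

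Gmnn, the inhibitor of Cdt1, fell by 1.24 (SE 0.123), to 8.03 and 7.86 in pregnancy, against 9.27 and 9.09 before. Mcmbp, whose protein binds the ring subunits, fell by 0.42 (SE 0.107, adjusted p = 0.0407), a call that no fit with an array left out kept (0 of 6). Mcm9, the partner of Mcm8, had a difference of -0.23 (SE 0.107, adjusted p = 0.188). Its level lay between 5.59 and 5.98 on all arrays.

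Of 16 genes of helicase activation and the working helicase, 7 fell and none (0) rose. The GINS genes Gins1 (-1.82, SE 0.164) and Gins2 (-0.87, SE 0.103) fell, as did Topbp1 (-2.00, SE 0.176), an activation factor, and the fork protection genes Timeless (-1.90, SE 0.120) and Tipin (-1.31, SE 0.140). Donson (-0.92, SE 0.117) and Wdhd1 (-0.95, SE 0.120) completed the 7. Cdc45, the other core partner of the ring, was at 6.39 and 6.58 in pregnancy, against 6.15 and 6.22 before (difference 0.30, adjusted p = 0.109). For the kinase, Cdc7 differed by 0.01 (adjusted p = 0.958), and Dbf4 by -0.85 (adjusted p = 0.162) with pregnant arrays far apart at 6.30 and 5.07.

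Among 11 regulators of the step from G1 to S, 6 fell and 1 rose. Those that fell were Rbl1 (-1.57, SE 0.173) and Rb1 (-0.60, SE 0.162) of the retinoblastoma family, Ccne2 (-1.35), the kinase gene Cdk2 (-1.12), the repressor E2f8 (-0.84) and the activator E2f1 (-0.49, SE 0.131). The E2f1 call held in 1 and that of Rb1 in 2 of the 6 fits with an array left out. Ccne1, the other cyclin E gene, rose by 0.75 (SE 0.150), a call kept in 3 of those fits. Over those 6 fits, 13 to 17 partner genes were called lower in pregnancy.

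After birth 7 of the 40 partners rose against pregnancy and none (0) fell, beside 2.41% and 0.879% of all genes: Cdt1 (1.37), E2f2 (1.03), Cdc6 (0.95), Wdhd1 (0.74), Orc6 (0.73), Gmnn (0.60) and Gins2 (0.58). With an array left out, 2 to 4 of them were called. Against the pre-pregnancy liver 13 were lower postpartum and 1, E2f2, was higher, beside 3.75% and 3.91% of all genes. The lower ones included Timeless (-1.58), Topbp1 (-1.48) and Gins1 (-1.29), beside the Mcm genes. Without pre-pregnancy replicate 1 the 13 became 1, Timeless, and without pre-pregnancy replicate 2 they became 7, and 5 without either postpartum array. Cdt1 was at 8.68 and 8.70 postpartum, against 9.13 and 8.85 before pregnancy (difference -0.30, adjusted p = 0.290). Thus Cdt1, unlike the Mcm genes, was not called lower postpartum; the difference between them was not tested.

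**Figure D4:**
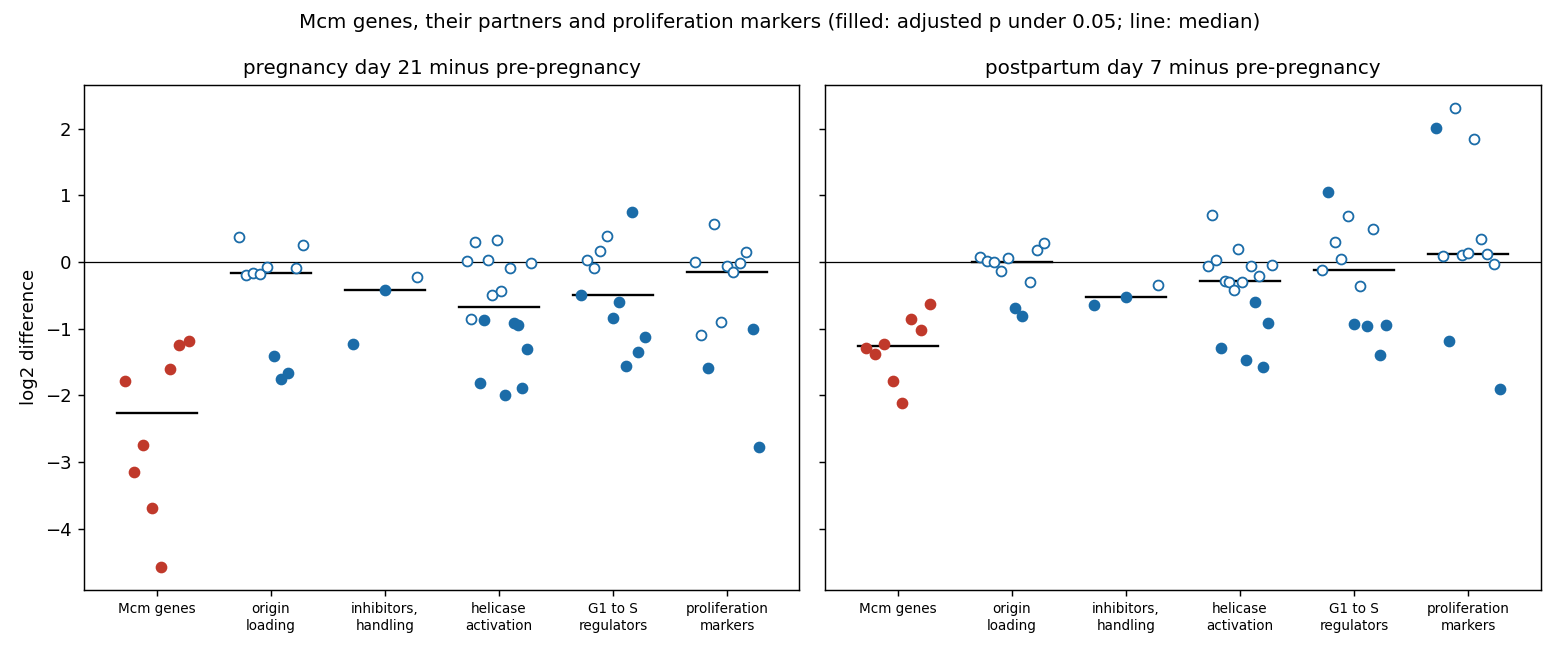
Log2 differences of the 8 Mcm genes (red), 40 partner genes in 4 groups and 11 proliferation markers (blue), for pregnancy and for postpartum, each minus pre-pregnancy. Filled points have an adjusted p under 0.05 and lines are medians; both panels share the pre-pregnancy arrays. The Mcm median lies at -2.27 on the left and -1.26 on the right, and the proliferation markers hold both falls and rises.

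General markers of cycling cells did not all go with the Mcm genes. Of 11 measured, 3 fell in pregnancy and none (0) rose, beside 8.25% and 5.46% of all genes: Uhrf1 (-2.78, SE 0.181), a factor of maintenance DNA methylation, the sliding clamp Pcna (-1.59, SE 0.141) and Rrm2 (-1.01, SE 0.241), a subunit of ribonucleotide reductase. The Rrm2 call held in 2 of 6 fits with an array left out. Of the 11 markers, 1 (Tyms, at 3.52 to 3.72) was under the lower quartile on all arrays, so a fall could hardly be seen there. Aurkb was dim too, at 4.20 to 5.09. Top2a, which untangles DNA, differed by -1.10 in pregnancy (adjusted p = 0.0505) and the mitotic kinase gene Cdk1 by -0.90 (adjusted p = 0.147). Both were called lower without pregnancy replicate 1, which brought the count of 3 to 5. Postpartum, Top2a differed from pre-pregnancy by 0.085 and Cdk1 by 0.10, and neither was called. Mki67, the usual label of cycling cells, had 6.41 and 6.38 before pregnancy, 6.94 and 5.86 at day 21 and 8.15 and 8.65 postpartum. Its pregnant arrays fell on either side of the pre-pregnancy ones (difference 0.005, SE 0.316, adjusted p = 0.996), and it rose postpartum against pre-pregnancy by 2.01 (SE 0.316, adjusted p = 0.0130). The Mki67 rise was not called without either pre-pregnancy array or postpartum replicate 2. The mitotic genes Ccna2 and Birc5 had still wider replicates, with 7.63 and 5.69 for Ccna2 and 6.55 and 4.35 for Birc5 in pregnancy. Postpartum, Ccna2 had 7.83 and 8.98, against 6.22 and 5.97 before pregnancy (difference 2.31, adjusted p = 0.0532). Birc5 had 6.74 and 8.15 postpartum, against 5.70 and 5.50 before (difference 1.85, adjusted p = 0.146). Neither was called. In the same pregnant livers Mcm6 had 5.38 and 5.31, Mcm3 6.09 and 5.33, and Mcm5 6.32 and 5.73. In the main probe sets, replicate 2 of pregnancy was the lower one for Ccna2, Birc5 and all Mcm genes except Mcm4 (5.94 and 6.27) and Mcm10 (8.65 and 9.06). The gap was small for Mcm6 and for Mcm2 (7.21 and 7.14), and the order depended on the probe set. In the second probe sets replicate 2 was the higher one for Mcm2 (5.06 and 5.66) and Mcm6 (4.14 and 4.28). It was the lower one for Mcm4 (5.36 and 4.93), Mcm5 (5.30 and 4.85) and the other called probe sets of Mcm3 and Mcm7. Postpartum, Pcna (-1.19) and Uhrf1 (-1.90) were lower than before pregnancy, as the Mcm genes were, and neither call held without pre-pregnancy replicate 1. Of the 11 markers, 2 rose postpartum against pregnancy (Mki67 and Uhrf1), and each of these calls held in 2 or fewer of the 6 fits with an array left out.

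Some markers of other liver cell types were also called in pregnancy, where 8.25% of all genes fell and 5.46% rose, and their part in the result was not tested. Of 8 endothelial markers, 3 fell (Kdr, Emcn and Tek, by 0.46 to 0.70). The summed linear signal of the list was 4030 to 4060 in pregnancy, against 4750 to 6030 before. Most of that sum came from Clec4g, which was not called (adjusted p = 0.124). It had 11.35 and 11.34 in pregnancy, against 11.99 and 11.51 before. Of 8 Kupffer cell and macrophage markers 1 fell (Timd4), with sums of 5500 to 6790 in pregnancy and 6930 to 7280 before, and of 6 stellate cell markers 1 fell (Lrat), with sums of 5540 to 5690 in pregnancy and 6600 to 7250 before. Of 6 neutrophil and myeloid precursor markers 2 rose (S100a9 and Mpo), with sums of 357 to 373 in pregnancy and 248 to 276 before. No marker of these or of the B cell, T and NK cell, bile duct and erythroid lists was under the lower quartile on all arrays (0), and none of those 4 further lists held a call in pregnancy (0). Of 7 hepatocyte markers none (0) fell and 1, Apob, rose. The lowest median among these cell type lists, -0.43, was that of the endothelial markers, beside -2.27 for the Mcm genes. Postpartum, the endothelial sums were 3770 to 4010 and the stellate sums 4580 to 5730, with no marker of either list called against pre-pregnancy (0). Postpartum calls against pre-pregnancy were 1 fall and 1 rise among Kupffer cell and macrophage markers, 1 fall among 3 B cell markers and 1 rise among hepatocyte markers.

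The Mcm genes lie on 6 chromosomes, and the genes next to them were described in the same way. Of the 16 nearest measured genes, 1 on each side of each member, 1 fell in pregnancy (Crls1, next to Mcm8, by 0.60) and 1 rose (Hmox1, next to Mcm5, by 0.85), with a median difference of 0.14, beside 8.25% of all genes that fell and 5.46% that rose. Prkdc, the gene next to Mcm4, differed by -0.14 (adjusted p = 0.489), and Cxcr4, next to Mcm6, by 0.21 (adjusted p = 0.191). Mcm3 and Mcm6 share chromosome 1, and Mcm8 and Mcm10 share chromosome 2.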

How the data were processed

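Total RNA of each liver was extracted with Trizol, biotinylated with the Affymetrix 3' IVT Express reagents and hybridised to 1 mouse array, per the labels' protocols. The deposited table holds log2 values for 45101 probe sets on 6 arrays, made by the authors with RMA and Affymetrix Power Tools, per the submitters' processing notes. The sources used here name no version or setting, and the log2 base is inferred from the range of the values, 2.69 to 15.05. RMA usually gives all arrays 1 distribution, which removes a change shared by most genes, and it compresses differences near background.

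The platform annotation gave 1 symbol to 34958 probe sets, several to 932 (not named), none to 9160, and 51 others were unnamed controls; 34754 gene IDs were found in the RefSeq table and 0 symbols changed. For each of 18194 genes the brightest probe set was fitted with limma 3.58.1 in R 4.3.3 (a mean per stage, eBayes, 6 arrays, 3 residual and 4.80 prior degrees of freedom), with two-sided p-values adjusted after Benjamini and Hochberg. The test was also run on simulated data in which genes varied independently of each other. Genes of real arrays need not do so, and that run cannot show how reliable the calls here are. With an array left out, the lone array of its stage is assumed to vary like the others. The difference between the 2 other stages is then unchanged, and only the spread and its degrees of freedom change there. The number of arrays limits the precision. The p-values rest on 1 spread per gene, pooled over 2 arrays at each of 3 stages and drawn towards that of all genes.

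The genes named are the 8 Mcm genes; partner and proliferation genes with a call or a direct role at the helicase; and the 6 genes most alike. Single markers, gene neighbours and genes of small counts were named after their values were seen. Members and lists were chosen with earlier results of these data known. Ccnb1, Serpina1a and Hbb-b1 were listed but not measured under these symbols. The alternatives were the replicate block, a filter at the 40th brightness percentile (5.52), a second quantile normalization, centring on array medians, a trended robust variance, other probe set choices, fits of only 2 groups, and leaving out each array.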

Additional observations from a re-analysis of the deposited data

How the results depend on the processing

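All 8 Mcm genes kept a negative difference in pregnancy under every alternative run that gives 1 value per gene, and 7 to 8 were called; Mcm8 is the gene not tested when dim genes are left out. With all arrays in place, calls were kept in 71 of 71 cases in pregnancy against pre-pregnancy, 43 of 45 in postpartum against pregnancy (and 4 of 26 uncalled cases gained a call, all of Mcm2) and 66 of 71 in postpartum against pre-pregnancy. Postpartum against pregnancy, 3 to 5 Mcm genes were called higher with an array left out, and 2 to 8 were called lower postpartum against pre-pregnancy. The Mcm8 difference after birth ran from -0.065 to 0.525 with an array left out, at -0.065 without pregnancy replicate 2 and -0.045 without postpartum replicate 1. All genes called numbered 2494, 599 and 1393 in the 3 comparisons, and 323 to 1977, 115 to 528 and 73 to 1582 with an array left out. With every probe set by itself they were 4475 for pregnancy and 2679 for postpartum against pre-pregnancy, where more features were tested, and fitting only the groups compared gave 203 for postpartum against pregnancy, with fewer degrees of freedom. With the replicate number as a block, 8, 5 and 8 Mcm genes and 2612, 574 and 1568 genes in all were called. The numbers share only a name: deviations of same-numbered arrays correlated at 0.0285, 0.111 and -0.0273 between stages. Probe sets near the lower quartile of an array limit what can be measured.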
